A study of Mus musculus with 10 samples.

Results

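RNA levels were followed for 8 genes of T-cell costimulation in sorted spleen CD4+ T cells: the receptors *Cd28*, *Icos* and *Cd226*, the T-cell ligand *Cd40lg*, the B7 ligands *Cd80*, *Cd86* and *Cd274*, and *Cd83*, a regulator of costimulatory proteins at the cell surface. The genes were taken by symbol, and each of the 8 was found in 10 of 10 count tables of 48321 symbols. The cells came from young adult C57BL/6 mice of mixed sexes carrying a FoxP3-Gfp reporter, so that GFP was read as FoxP3. KO mice were Satb1 F/F; ThPOK-cre, in which Cre driven by the CD4-lineage gene *Thpok* deletes *Satb1*, a chromatin organizer, while the alleles carried by mice labelled WT beyond the reporter are not given in the sources used here. The 10 libraries, 2 a group, were of FoxP3+CD25+ cells (called Tregs here) and FoxP3-CD25- cells (non-Tregs), each from WT and from KO mice, and of FoxP3+CD25- cells, a population sorted from KO mice alone. The labels number the replicates but do not state that they are separate animals, so p-values measure the spread between these libraries, which for KO may be technical.

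Between 6094952 and 12410064 reads were counted on genes per library. *Satb1* itself showed no clear loss in libraries labelled KO. It stood at 379 and 478 CPM (a gene's reads per 1000000 reads on genes, scaled by TMM factors) in WT Tregs against 598 and 534 CPM in KO Tregs, at 818 and 881 CPM in WT against 841 and 682 CPM in KO non-Tregs, and at 1186 and 993 CPM in KO FoxP3+CD25- cells. Gene-level counts do not resolve the deleted part of the gene, so this reading does not check the deletion, and "KO" below means labelled KO. The sort was visible in *Foxp3*, at 618 to 739 CPM in the 4 Treg libraries, 318 and 361 CPM in KO FoxP3+CD25- cells and 18.0 to 38.9 CPM in non-Tregs. WT replicate 1 held 14487 and 16362 counts of *Xist* and 0 counts of the Y-linked genes in its 2 libraries, whereas the other 8 libraries held at most 4 counts of *Xist* and 3039 to 4750 counts of the Y-linked genes. The 2 WT replicates were therefore different animals, WT replicate 1 stood apart from the others in sex-linked genes, and values without it are given where they turned a result.

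A naive T cell needs a signal from its antigen receptor together with a costimulatory signal, and the best known of these is given when CD28 binds CD80 or CD86 on an antigen-presenting cell. CTLA-4, abundant in Tregs, binds the same ligands more tightly and removes them from presenting cells, while ICOS binds its own B7 relative and sustains helper and regulatory T cells. CD274 (PD-L1) is the inhibitory B7 protein that engages PD-1. CD40LG on helper T cells licenses B cells and dendritic cells through CD40. CD226 competes with TIGIT and CD96 for shared ligands, and CD83 holds CD86 and MHC class II at the surface by opposing the ubiquitin ligase MARCH1.

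*Cd28*, *Ctla4* and *Icos* are neighbours on 1 strand of chromosome 1 and lie within 283.5 kb of each other, in that order, yet their levels followed different patterns across the sorted groups. The coding stretches of a ligand-binding motif and a signalling motif of each are shown from GENCODE M21 transcripts (GRCm38, plus strand), in lower case with the codons of the motif in capitals. The first set, in exon 2, holds the proline-rich loop that touches the ligand.
Cd28 loop, chr1:60763266-60763301: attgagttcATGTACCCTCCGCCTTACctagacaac
Ctla4 loop, chr1:60912704-60912739: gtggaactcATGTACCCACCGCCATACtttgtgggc
Icos loop, chr1:60993974-60994009: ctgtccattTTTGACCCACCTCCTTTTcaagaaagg
The second set, in exon 4, holds the tyrosine motif of the cytoplasmic tail that recruits PI3-kinase.
Cd28 tail, chr1:60769684-60769713: caaagtgacTACATGAACATGactccccgg
Ctla4 tail, chr1:60914637-60914666: acaggggtcTATGTGAAAATGcccccaaca
Icos tail, chr1:60995551-60995580: aatagtgaaTACATGTTCATGgcggcagtc
In the loop, *Cd28* and *Ctla4* shared 16 of 18 capital bases and *Cd28* and *Icos* 11 of 18. The capitals of *Cd28* and *Ctla4* encode the same amino acids (MYPPPY), so their differing bases do not change the loop. In the tail, the order of likeness was the other way round: *Cd28* and *Icos* shared 10 of 12 capital bases, *Cd28* and *Ctla4* 9 of 12.

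Per exon length, the make-up of the costimulatory set differed between Tregs and non-Tregs. In WT non-Tregs the highest level of the 8 genes was that of *Cd40lg*, at 95.8 and 138.6 CPM per kb, followed by *Cd28* at 64.7 and 75.7 CPM per kb and *Icos* at 26.8 and 35.3 CPM per kb. In WT Tregs *Cd28* stood at 56.9 and 78.4 CPM per kb and *Icos* at 48.7 and 81.8 CPM per kb, levels that overlapped. *Cd274* and *Cd83* reached 31.5 to 38.8 and 31.7 to 37.6 CPM per kb there, while *Cd40lg* stood at 21.8 and 33.1 CPM per kb. *Cd80* was the lowest in every group, at no more than 1.04 CPM per kb. Per-length values use the union of annotated exons, and levels are compared between genes only on this scale.

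**Figure D1:**
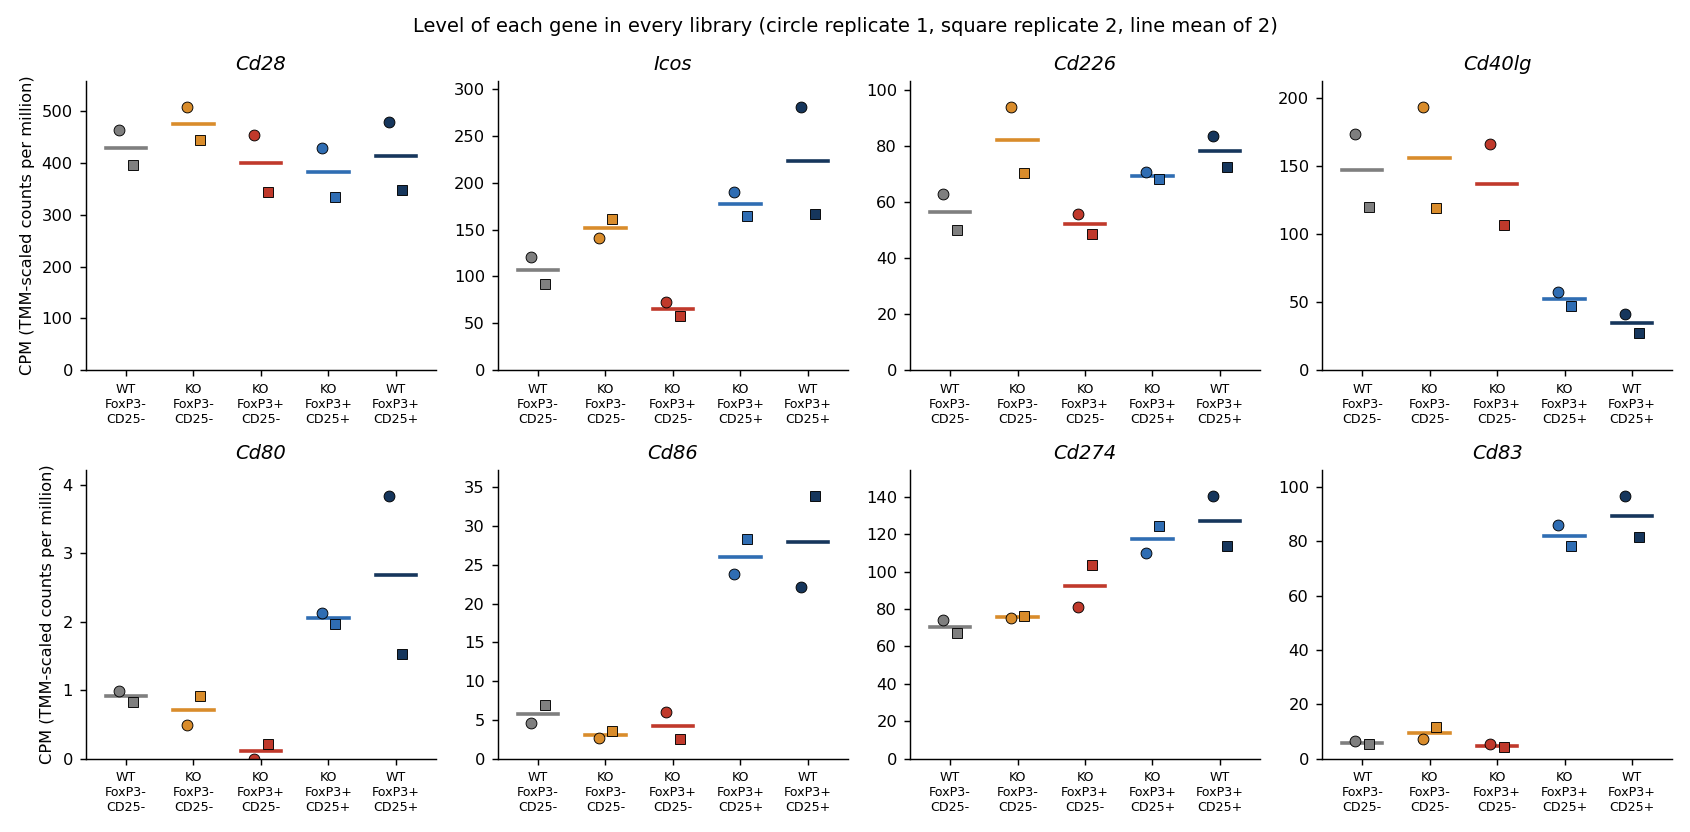
TMM-scaled CPM of the 8 genes (y axes, linear from 0, 1 panel a gene) in the 5 sorted groups (x axis); circles are replicate 1, squares replicate 2, and lines the mean of 2 libraries. *Cd28* overlapped between neighbouring groups, *Cd40lg* was low in the 4 Treg libraries, *Cd83* and *Cd86* were high in those libraries alone, and *Icos* was lowest in KO FoxP3+CD25- cells.

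The first comparison asked how costimulatory genes differ between Tregs and conventional CD4+ T cells of WT mice. *Cd83*, *Cd86*, *Icos* and *Cd274* rose in WT Tregs and *Cd40lg* fell, by edgeR's quasi-likelihood F-test with FDR (the Benjamini-Hochberg adjusted p) under 0.05. These are 5 of the 8 genes, beside 10.9% of the 13796 genes tested. In the 2 directions, 4 of the 8 rose, beside 7.15% of all genes, and 1 fell, beside 3.75%. The median log2 fold change was 0.96 over the 8 genes and -0.02 over all genes tested. Without *Cd80*, which passed the filter on low counts through Treg libraries alone, it was 0.85 over 7 genes.

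Among the receptors, *Icos* stood at 281 and 167 CPM in WT Tregs and at 121 and 92.05 CPM in WT non-Tregs, with no overlap between the groups. Its level was 2.1-fold higher in WT Tregs (log2 fold change 1.07, SE 0.22, FDR = 0.0103), but the call was lost without WT Treg replicate 1 (FDR = 0.0696) or without WT non-Treg replicate 2 (FDR = 0.11). *Cd28*, the archetypal costimulatory receptor, was at 480.0 and 348 CPM in WT Tregs and 463 and 396 CPM in WT non-Tregs, so that the non-Treg libraries lay within the range of the Treg libraries. Its log2 fold change was -0.05, with a 95% interval from -0.47 to 0.36. The third receptor, *Cd226*, was at 83.6 and 72.8 CPM in WT Tregs against 62.95 and 50.05 CPM in WT non-Tregs (log2 fold change 0.47, FDR = 0.104). With the mouse as a replicate block it passed the threshold (FDR = 0.00756).

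*Cd40lg* carries the help signal of CD4+ T cells and lies on the X chromosome (GRCm38 chrX:57212143-57224042, plus strand). It was at 41.3 and 27.3 CPM in WT Tregs and at 173 and 119.8 CPM in WT non-Tregs, groups that stood far apart. The level was 4.28-fold lower in WT Tregs (log2 fold change -2.10, SE 0.30, FDR = 0.00107), a call kept without any single library.

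The B7 ligands, which are best known from antigen-presenting cells, were all higher by their means in WT Tregs. *Cd86* (chr16:36603869-36666081, minus strand) was at 22.1 and 33.9 CPM in WT Tregs and 4.56 and 6.91 CPM in WT non-Tregs, a 4.95-fold difference (log2 fold change 2.31, SE 0.32, FDR = 0.000917). *Cd80*, on the same chromosome at chr16:38455561-38496335 (plus strand), was near the detection limit, with 30 and 13 counts in WT Tregs against 12 and 8 in WT non-Tregs. It passed the filter on low counts through the Treg libraries alone, 4 of 10, and did not pass the test in this comparison (log2 fold change 1.51, FDR = 0.104), although it did with the mouse as a replicate block (FDR = 0.0327).

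*Cd274* (chr19:29367455-29388095, plus strand) was at 140.5 and 114.0 CPM in WT Tregs and 74.05 and 67.1 CPM in WT non-Tregs. The groups did not overlap, and the mean was 1.80-fold higher in WT Tregs (log2 fold change 0.85, SE 0.14, FDR = 0.00305), though not past the threshold without both libraries of WT replicate 1 (FDR = 0.0557). An unlisted antisense transcript covers 511 of its 3622 exon bases, and because the strand setting of the counting is not given, reads of the pair cannot be told apart there.

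*Cd83* (chr13:43784775-43803132, plus strand) was the most strongly raised of the 8 genes and had the tenth lowest p-value of all genes tested. It was at 96.6 and 81.6 CPM in WT Tregs and 6.38 and 5.26 CPM in WT non-Tregs. That is a 15.2-fold difference (log2 fold change 3.92, SE 0.21, FDR = 1.94e-06), with replicates that differed far less than the groups.

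Since *Cd80*, *Cd86* and *Cd83* are also genes of antigen-presenting cells, markers of such cells are given beside them. Of the 7 dendritic-cell markers, *Itgax*, *Flt3*, *Siglech*, *Cd209a* and *Batf3* were at 0 in both WT Treg libraries, and the summed level of the list was 4.49 to 8.06 CPM in WT Tregs against 1.49 to 1.65 CPM in WT non-Tregs. *Zbtb46*, which is also expressed outside dendritic cells, was the list's highest gene, at 5.35 against 1.14 CPM. The 7 B-cell markers summed to 26.8 to 34.9 CPM in WT Tregs and 14.3 to 17.6 CPM in WT non-Tregs: *Cd79b* rose from 1.12 to 16.9 CPM, while *Ms4a1* was at 0 in both WT Treg libraries and had at most 5 counts in any library. MHC class II genes summed to 56.2 to 92.7 against 26.9 to 35.9 CPM, and the only one called was *Cd74*, at 43.8 against 2.07 CPM. Monocyte and macrophage markers summed to 18.4 to 22.3 CPM in WT Tregs and 21.2 to 25.1 CPM in WT non-Tregs. In KO Tregs against KO non-Tregs the B-cell markers summed to 20.8 to 25.5 against 24.0 to 29.1 CPM, with *Cd79b* higher (14.5 against 4.14 CPM) and 1 other of the 3 tested markers called lower in KO Tregs, the dendritic-cell markers to 3.80 to 4.12 against 1.84 to 3.97 CPM, and the MHC class II genes to 61.0 to 76.1 against 33.1 to 36.2 CPM. Monocyte and macrophage markers summed to 17.6 to 23.0 CPM in KO Tregs against 21.3 to 23.0 CPM in KO non-Tregs, with 1 of 3 tested genes called lower. The part of these lists in the levels of *Cd80*, *Cd86* and *Cd83* was not tested, and in bulk RNA more cells of a type and more RNA per cell cannot be told apart.

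The same comparison within KO mice raised *Cd83*, *Cd86* and *Cd274* and lowered *Cd40lg* in KO Tregs. These are 4 of the 8 genes, beside 6.34% of all genes tested in this comparison, of which 3 rose (3.52% of all genes) and 1 fell (2.81%). *Cd83* was at 86.1 and 78.1 CPM in KO Tregs against 7.28 and 11.6 CPM in KO non-Tregs (log2 fold change 3.10, SE 0.20, FDR = 1.70e-05). *Cd86* was at 23.8 and 28.3 CPM against 2.65 and 3.56 CPM (log2 fold change 3.05, SE 0.39, FDR = 0.00099). For both genes every Treg library was several times above every non-Treg library.

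*Cd274* was at 110.0 and 124.6 CPM in KO Tregs and 75.1 and 76.3 CPM in KO non-Tregs (log2 fold change 0.63, FDR = 0.0272), and *Cd40lg* at 57.5 and 46.9 CPM against 193 and 119 CPM (log2 fold change -1.58, FDR = 0.00968). The groups did not overlap for either gene, but the call of *Cd274* was lost without any 1 of the 4 libraries (FDR = 0.0706 to 0.214), and that of *Cd40lg* without KO non-Treg replicate 1 (FDR = 0.0705) or KO Treg replicate 2 (FDR = 0.0991).

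*Icos* did not pass the test within KO mice, at 189.8 and 165 CPM in KO Tregs against 141 and 162 CPM in KO non-Tregs (log2 fold change 0.23, FDR = 0.744). The lowest Treg library lay just above the highest non-Treg library. *Cd226* overlapped between the groups, at 70.95 and 68.1 CPM in KO Tregs and 93.95 and 70.6 CPM in KO non-Tregs. *Cd28* was at 429.8 and 334 CPM against 508 and 445 CPM (log2 fold change -0.32, FDR = 0.496) and passed only with the mouse as a replicate block (FDR = 0.0293). *Cd80* had 14 and 15 counts in KO Tregs and 3 and 7 in KO non-Tregs (FDR = 0.322).

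**Figure D2:**
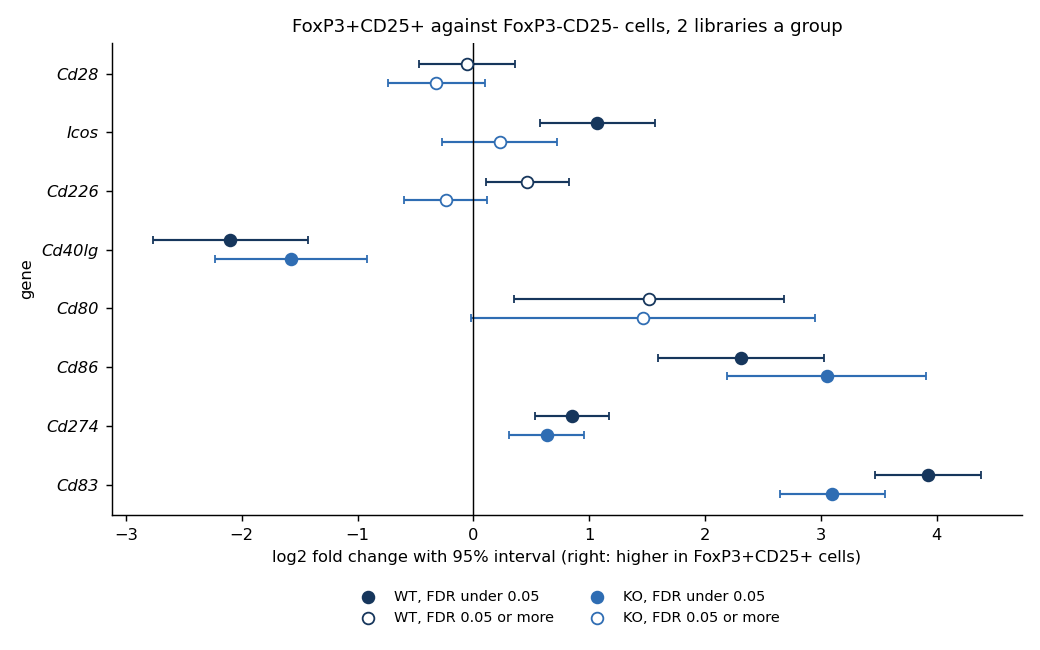
Log2 fold change of FoxP3+CD25+ over FoxP3-CD25- cells (x axis; right is higher in FoxP3+CD25+ cells) for the 8 genes (y axis), WT in dark and KO in light blue; bars are 95% intervals and filled points have FDR under 0.05. *Cd83* and *Cd86* lay far to the right in both genotypes and *Cd40lg* to the left, while *Icos* was filled in WT alone (1.07 against 0.23).

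Whether the Treg-to-non-Treg difference itself changed with genotype was tested as an interaction. It was called for 0 of the 8 genes by edgeR, beside 0% of all genes tested, and 3 of the 8 had an unadjusted p under 0.05, as did 4.97% of all genes. DESeq2 and the likelihood ratio test also called 0 of the 8, beside 25 and 32 of all genes. With the mouse as a replicate block 0 of the 8 were called, beside 149 of all genes. Under that block *Cd226* (FDR = 0.0547) and *Icos* (FDR = 0.0584) lay just short of the threshold, and *Cd83* (FDR = 0.227) further from it. The difference was smaller in KO by 0.84 on the log2 scale for *Icos* (95% interval of the change -1.54 to -0.14, FDR = 0.905) and by 0.83 for *Cd83* (-1.47 to -0.18, FDR = 0.854). For *Cd226* it went from 0.47 in WT to -0.24 in KO, neither called, a change of -0.71 (-1.21 to -0.20, FDR = 0.798).

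KO FoxP3+CD25- cells were next set against the 2 other populations of the same KO mice, to ask whether cells with FoxP3 but without CD25 carry the costimulatory genes of Tregs. Against KO non-Tregs, *Icos* fell and the other 7 genes did not pass the edgeR test, a count of 1 of 8 beside 1.67% of all genes called and 1.35% called lower. Against KO Tregs, *Cd40lg* rose and *Cd83*, *Cd86*, *Cd80* and *Icos* fell, 5 of 8 beside 7.02% of all genes. Of all genes 2.25% were called higher, as was 1 of the 8, and 4.76% lower, as were 4 of the 8. Because *Cd80* passed the filter on low counts through Treg libraries alone, its call against Tregs was favoured by the filter. Without it the count was 4 of 7. The comparisons share the KO FoxP3+CD25- libraries and are given side by side.

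*Icos* was at 72.1 and 57.3 CPM in KO FoxP3+CD25- cells, below all of the 8 other libraries. It was 2.35-fold lower than in KO non-Tregs (log2 fold change -1.23, SE 0.23, FDR = 0.0274) and 2.75-fold lower than in KO Tregs (-1.46, SE 0.23, FDR = 0.0033). The first of these calls was lost without KO FoxP3+CD25- replicate 1 (FDR = 0.086) or 2 (FDR = 0.249) or without KO non-Treg replicate 2 (FDR = 0.171). *Cd226* (chr18:89176967-89272229, plus strand) also had its lowest mean in these cells, with libraries at 55.6 and 48.5 CPM, a log2 fold change of -0.66 against KO non-Tregs (FDR = 0.0853) and -0.42 against KO Tregs (FDR = 0.185). With the mouse as a replicate block both passed the threshold (FDR = 0.00436 and 0.0221). Against KO non-Tregs *Cd226* also passed by DESeq2 (FDR = 0.0327), by the likelihood ratio test (FDR = 0.0169) and with no filter (FDR = 0.047). *Cd28* stood at 454 and 344 CPM and overlapped with both populations.

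*Cd40lg* was at 166 and 107 CPM in KO FoxP3+CD25- cells, within or just below the range of non-Tregs and above both Treg groups. It was 2.60-fold higher than in KO Tregs (log2 fold change 1.38, SE 0.30, FDR = 0.0165), a call lost without KO Treg replicate 1 or 2 or KO FoxP3+CD25- replicate 1 (FDR = 0.0671 to 0.139), and differed from KO non-Tregs by -0.19 with an interval from -0.82 to 0.43.

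*Cd83* was at 5.33 and 4.27 CPM in KO FoxP3+CD25- cells, 17.3-fold below KO Tregs (log2 fold change -4.11, SE 0.22, FDR = 3.77e-06), the seventh lowest p-value of that comparison. Against KO non-Tregs its log2 fold change was -1.01 (FDR = 0.0938), with no overlap between the libraries. It passed the threshold with the mouse as a replicate block (FDR = 0.0353), by DESeq2 (FDR = 0.0276) and by the likelihood ratio test (FDR = 0.0121). Without KO non-Treg replicate 1 the log2 fold change was -1.29. *Cd86* was at 5.98 and 2.52 CPM, 6.49-fold below KO Tregs (log2 fold change -2.70, SE 0.37, FDR = 0.00127) and overlapping with non-Tregs of both genotypes. So the level of either gene in these cells was far below that of Tregs. *Cd86* lay near non-Tregs, while *Cd83* overlapped with WT non-Tregs and lay below KO non-Tregs. Some but not all lists of antigen-presenting-cell markers were lower beside them. The B-cell list summed to 5.58 to 7.27 CPM in KO FoxP3+CD25- cells against 20.8 to 25.5 CPM in KO Tregs, with 2 of its 3 tested genes called lower. The MHC class II list summed to 32.5 to 33.7 against 61.0 to 76.1 CPM, with 1 of its 4 tested genes called lower. Dendritic-cell markers summed to 1.09 to 1.94 against 3.80 to 4.12 CPM. Monocyte and macrophage markers were not lower, at 21.9 to 25.2 against 17.6 to 23.0 CPM, with 0 of 3 tested genes called. The part of these lists in the levels of *Cd83*, *Cd86* and *Cd80* was not tested.

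In KO FoxP3+CD25- libraries *Cd80* was counted 0 and 2 times, against 14 and 15 in KO Tregs. Over both libraries the scaled ratio of KO Tregs to KO FoxP3+CD25- cells was 15.7, with an exact 95% interval of 3.96 to 135 that covers counting error only. The fitted difference was called (FDR = 0.0294) but not without any 1 of the 4 libraries (FDR = 0.11 to 0.16). *Cd274* was at 81.0 and 103.5 CPM, between KO non-Tregs and KO Tregs and overlapping with neither, and did not pass the test against either (log2 fold change 0.29, FDR = 0.599, and -0.34, FDR = 0.223). Against KO Tregs it passed with the mouse as a replicate block (FDR = 0.0351).

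**Figure D3:**
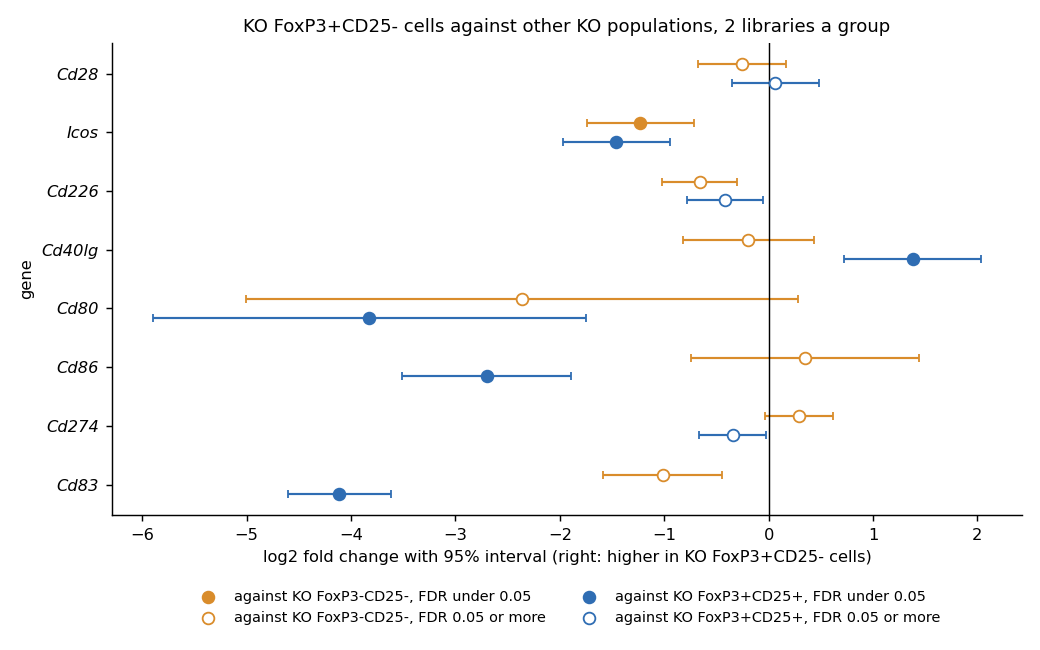
Log2 fold change of KO FoxP3+CD25- cells (x axis; right is higher in these cells) over KO FoxP3-CD25- cells in orange and over KO FoxP3+CD25+ cells in blue, for the 8 genes (y axis); bars are 95% intervals and filled points have FDR under 0.05. Most blue points lay far from 0 (*Cd83* at -4.11, *Cd40lg* at 1.38), while *Icos* at -1.23 was the only filled orange point.

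Several markers of activated or memory T cells were lower beside *Icos* in this population. The 8 genes of the activated or memory list summed to 496.5 to 818 CPM in KO FoxP3+CD25- cells and 1690 to 1817 CPM in KO non-Tregs, and 4 of the 8 fell against KO non-Tregs, beside 1.35% of all genes, among them *Cd44* (17.0 against 152 CPM) and *Cxcr3* (11.2 against 113 CPM). *Cd69*, an early activation marker, did not pass the test, at a mean of 397 against 360 CPM. The 7 naive-cell markers summed to 6509 to 6779 CPM against 6196 to 6388 CPM, and 0 of the 7 passed the edgeR test, with 2 at an unadjusted p under 0.05. The part of these states in the level of *Icos* was not tested.

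Against WT populations, KO FoxP3+CD25- cells gave the following values. Of the 8 genes, 0 were called against WT non-Tregs, beside 0.768% of all genes tested, by edgeR, 0 by DESeq2 and 0 by the likelihood ratio test, and 3 had an unadjusted p under 0.05, as did 8.80% of all genes. *Icos* had a log2 fold change of -0.73 (FDR = 0.284), *Cd274* of 0.39 (FDR = 0.417) and *Cd80*, with 2 counts against 20, a scaled ratio of 7.04 in favour of WT non-Tregs (exact 95% interval 1.71 to 62.1). *Cd40lg* (-0.11), *Cd28* (-0.11) and *Cd226* (-0.12) lay close to 0, with libraries that overlapped. Against WT Tregs 6 of the 8 were called, beside 11.2% of all genes. *Cd40lg* rose (log2 fold change 1.99), in the direction of 3.88% of all genes, and *Cd83* (-4.23), *Cd86* (-2.80), *Icos* (-1.79), *Cd226* (-0.59) and *Cd80* fell, 5 of 8 in the direction of 7.34%. *Cd80* had 2 counts against 43, a scaled ratio of 20.2 in favour of WT Tregs (exact 95% interval 5.27 to 172), and without this gene, favoured by the filter, 5 of 7 were called. The calls of *Cd80* and *Cd226* rest on few libraries, since *Cd80* (FDR = 0.00819) was lost without WT Treg replicate 1 (FDR = 0.056) or without KO FoxP3+CD25- replicate 1 (FDR = 0.062) or 2 (FDR = 0.0536), and *Cd226* (FDR = 0.0424) without WT Treg replicate 1 (FDR = 0.181), without any 1 of the 4 KO Treg or KO FoxP3+CD25- libraries (FDR = 0.0632 to 0.254) and in a fit of the compared libraries alone (FDR = 0.0555). Without both libraries of WT replicate 1, 4 of the 8 were called, *Cd80* (FDR = 0.0748) and *Cd226* (FDR = 0.168) no longer.

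The last comparisons asked whether costimulatory genes change between libraries labelled KO and WT within a population. In Tregs 0 of the 8 genes were called by edgeR, beside 0.00725% of all genes tested, 0 by DESeq2 and 0 by the likelihood ratio test, and 0 of the 8 had an unadjusted p under 0.05. *Cd83* (96.6 and 81.6 CPM in WT, 86.1 and 78.1 CPM in KO), *Cd86*, *Cd274*, *Cd28* and *Icos* overlapped between genotypes. The largest fitted difference was that of *Cd40lg*, at 57.5 and 46.9 CPM in KO against 41.3 and 27.3 CPM in WT Tregs (log2 fold change 0.61, 95% interval -0.07 to 1.28). For *Cd28* the interval ran from -0.54 to 0.30 and for *Cd83* from -0.49 to 0.26. With 2 libraries a group, changes inside these bounds are not excluded, and the bounds are no limit of detection. *Icos* had a log2 fold change of -0.34 that turned to 0.09 without WT Treg replicate 1.

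In non-Tregs 0 of the 8 genes were called by edgeR, beside 0.145% of all genes tested, 0 by DESeq2 and 0 by the likelihood ratio test, and 3 had an unadjusted p under 0.05, each higher in KO, as did 8.02% of all genes in either direction. *Cd226* was at 93.95 and 70.6 CPM in KO and 62.95 and 50.05 CPM in WT non-Tregs (log2 fold change 0.54, SE 0.16, FDR = 0.343). *Cd83* was at 7.28 and 11.6 CPM in KO and 6.38 and 5.26 CPM in WT non-Tregs (log2 fold change 0.71, SE 0.24, FDR = 0.417). *Icos* was at 141 and 162 CPM in KO and 121 and 92.05 CPM in WT non-Tregs (log2 fold change 0.50, SE 0.22, FDR = 0.612). In all 3 genes both KO libraries lay above both WT libraries, but the differences did not hold after adjustment over all genes. The activated or memory list summed to 1690 to 1817 CPM in KO and 848 to 1296 CPM in WT non-Tregs, with 0 of its 8 genes called by edgeR and 4 at an unadjusted p under 0.05, each higher in KO. The 7 Treg markers summed to 298 to 352 CPM in KO and 138 to 216 CPM in WT non-Tregs, with 0 called and 4 at an unadjusted p under 0.05 (*Foxp3* at 29.2 against 18.3 CPM), and the B-cell markers to 24.0 to 29.1 against 14.3 to 17.6 CPM, with 0 of 3 called and 2 at that level. The part of these lists in the differences was not tested.

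**Figure D4:**
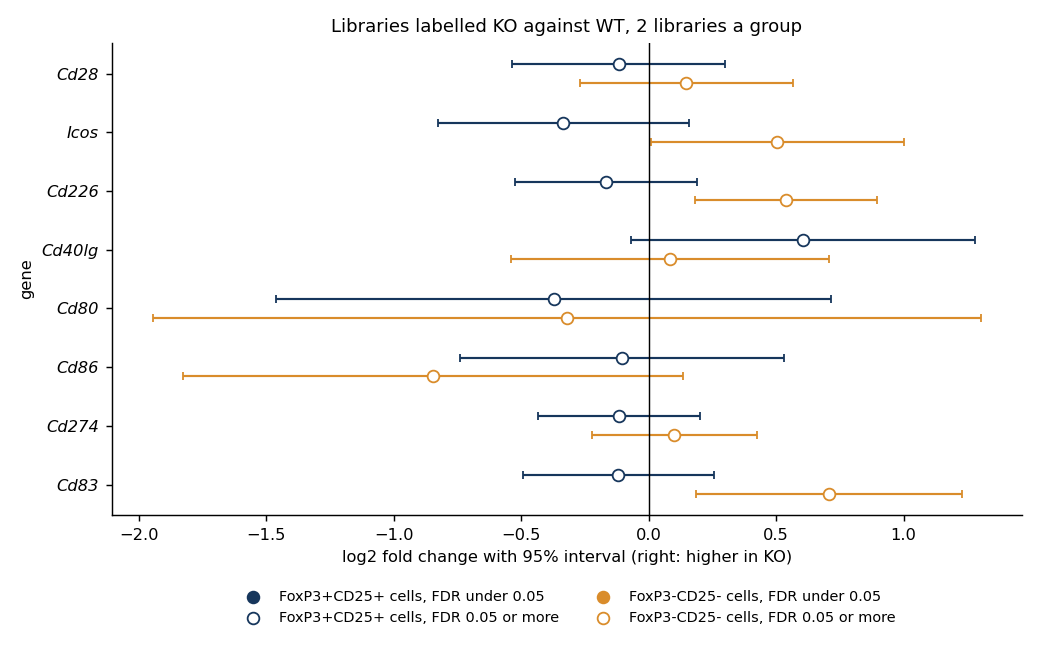
Log2 fold change of libraries labelled KO over WT (x axis; right is higher in KO) in FoxP3+CD25+ cells in dark blue and FoxP3-CD25- cells in orange, for the 8 genes (y axis); bars are 95% intervals and open points have FDR of 0.05 or more. All 16 points are open, and the intervals of *Icos*, *Cd226* and *Cd83* in FoxP3-CD25- cells lie to the right of 0.

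The nearest relatives of the 8 genes were examined as a fixed list. Of 11 other CD28-family and B7 genes, 6 passed the filter on low counts. In WT Tregs *Ctla4*, *Pdcd1* and *Pdcd1lg2* rose and the other 3 of the 6 did not pass the test, a share to be read beside the 7.15% of all genes called higher. The median log2 fold change was 0.55 over the 6 and -0.02 over all genes tested. *Ctla4*, the inhibitory receptor for CD80 and CD86, was at 676 and 489 CPM in WT Tregs against 97.2 and 48.0 CPM in WT non-Tregs (log2 fold change 3.0, FDR = 0.00181), and *Pdcd1lg2*, the second ligand of PD-1, at 12.5 and 13.7 CPM against 1.99 and 1.86 CPM (log2 fold change 2.76, FDR = 0.000446). In KO Tregs *Pdcd1lg2* (2.0) and *Ctla4* (2.29) rose over KO non-Tregs. KO FoxP3+CD25- cells had lower *Ctla4* (-2.54), *Pdcd1* (-1.76) and *Pdcd1lg2* (-2.92) than KO Tregs, and lower *Pdcd1* (-1.68, FDR = 0.00187) than KO non-Tregs. In KO against WT, edgeR called 0 of the 6 in Tregs (0 at an unadjusted p under 0.05) and 0 in non-Tregs (1 at that level, *Pdcd1*, 0.98).

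Per exon length the balance of *Ctla4* over *Cd28* separated Tregs from every other library. The ratio was 3.70 and 3.69 in WT Tregs and 3.79 and 3.03 in KO Tregs, and between 0.318 and 0.740 in the 6 other libraries, KO FoxP3+CD25- cells included. The ratio of *Icos* to *Cd28* per length was 0.788 to 1.04 in the 4 Treg libraries, 0.414 to 0.649 in non-Tregs, and 0.283 and 0.297 in KO FoxP3+CD25- cells. These ratios follow from the levels already given and were not tested apart from them.

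**Figure D5:**
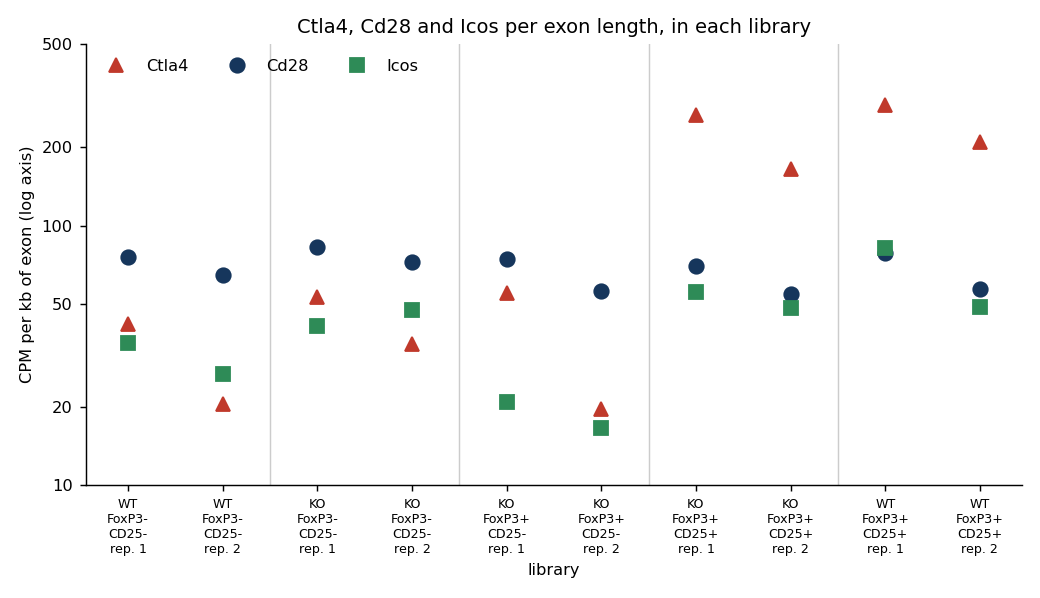
Level per exon length of *Ctla4* (triangles), *Cd28* (circles) and *Icos* (squares) in each of the 10 libraries (x axis), in CPM per kb on a log y axis. *Ctla4* exceeded *Cd28* in the 4 FoxP3+CD25+ libraries and lay below it in the other 6, and *Icos* was lowest in the 2 KO FoxP3+CD25- libraries.

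Among the partners and rivals of CD226, 4 of the 6 genes found in the tables were tested. The inhibitory receptors *Tigit* and *Cd96* rose in WT Tregs, 2 of the 4 beside 7.15% of all genes called higher. Mean *Tigit* went from 14.1 to 109 CPM (log2 fold change 2.95, FDR = 0.000466), but its 2 WT Treg libraries lay far apart (SD 69.3 CPM). Mean *Cd96* went from 144 to 209.7 CPM (0.54, FDR = 0.0196). *Cd96* alone was called in KO Tregs against KO non-Tregs (0.83, FDR = 0.00324), beside 3.52% of all genes called higher. *Tigit*, not called there, also had the higher mean in KO Tregs, at 61.85 against 26.66 CPM. Both fell in KO FoxP3+CD25- cells against KO Tregs, *Tigit* by 2.69 and *Cd96* by 0.82 on the log2 scale, the direction in which *Cd226* lay without passing the test.

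In the CD40 pathway, the receptor *Cd40* itself was at most 0.512 CPM in any library. Of 7 tested genes 1 was called in WT Tregs against WT non-Tregs, near the share of all genes, 10.9%. It was *Map3k14*, the NF-kappaB-inducing kinase, which was lower in WT Tregs (log2 fold change -0.46, FDR = 0.00779). Within KO mice edgeR called 0 of the 7 in any of the 3 comparisons, where 1 to 3 had an unadjusted p under 0.05. Of all genes 6.34% were called in KO Tregs against KO non-Tregs. For KO FoxP3+CD25- cells it was 1.67% against KO non-Tregs and 7.02% against KO Tregs, so 0 of 7 is little to read. *Map3k14* (0.49) was higher and *Traf5* (-0.54) lower in KO FoxP3+CD25- cells than in WT Tregs, 2 of the 7 beside 11.2% of all genes.

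Of 18 tested genes for signalling below CD28 and ICOS, 4 fell in WT Tregs, beside 3.75% of all genes, and 0 rose. Among them were the adaptor *Grap2* (log2 fold change -0.45, FDR = 0.0215) and the PI3-kinase subunit *Pik3cd* (-0.40, FDR = 0.0338). The symbol *Pdk1*, listed by mistake for the kinase next to PI3-kinase that shares the abbreviation, names a mitochondrial pyruvate dehydrogenase kinase and was left out of this count after its values were seen. In KO FoxP3+CD25- cells 4 of the 18 were higher than in KO Tregs, beside 2.25% of all genes, *Grap2* (0.60) and *Pik3ip1* (0.86) among them, and 0 of the 18 were called against KO non-Tregs by edgeR, with 2 at an unadjusted p under 0.05.

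The list of genes for turnover of costimulatory RNA and protein held 10 tested genes. *Zc3h12d*, an RNA-binding protein of the regnase family, rose in WT Tregs (log2 fold change 0.85, FDR = 0.00284) and, with *Zc3h12a* (0.77), which cleaves *Icos* RNA, in KO Tregs (0.64). The WT count of 1 of 10 was near the share of all genes called higher, 7.15%. The KO count was 2 of 10, beside 3.52%. In KO FoxP3+CD25- cells *Zc3h12d* was lower (-0.89) and *Cmtm4*, a partner of PD-L1 at the membrane, higher (0.61) than in KO Tregs. These were 2 of the 10, beside 7.02% of all genes. The other tested genes of the list, roquins and ubiquitin ligases among them, were not called in any of the 9 comparisons.

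The genes whose log2 CPM pattern over the 10 libraries was most like that of each of the 8 are given as a description, since all share the same libraries and group structure. *Cd83* was followed by *Tnfrsf4* (OX40, Pearson's r = 0.994) and *Noxa1* (0.994), *Icos* by *Phactr2* (0.990) and *Cpd* (0.984), *Cd40lg* by *Mfng* (0.981) and *Rgcc* (0.979), and *Cd86* by *Gsto1* (0.987) and *She* (0.981). *Cd274* was followed by *Mast4* (0.971) and *Iglon5* (0.965), *Cd226* by *Wdr1* (0.952) and *Abhd4* (0.949), and *Cd28* by *Baz1a* (0.965) and *L3mbtl3* (0.943). For *Cd80*, with 30 counts at most, the nearest were *Npas4* (0.992) and *Npnt* (0.982). Among the 8 genes themselves, r ran from -0.903 (*Cd83* with *Cd40lg*) to 0.920 (*Cd83* with *Cd86*). *Cd40lg* also ran against *Cd86* (-0.897) and *Cd274* (-0.852), and *Icos* went with *Cd80* (0.888), *Cd83* (0.821) and *Cd226* (0.809).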

How the data were processed

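RNA of 10 sorted libraries was sequenced as 50-base reads. According to the study's methods and the submitters' processing notes, the authors aligned reads to mm10 with HISAT2 2.1.0 and deposited raw whole-number read counts per gene symbol from HTSeq, 1 table a library. The processing notes name HTSeq 0.11.1, and neither the strand setting nor the annotation is given in the sources used here. Of the reads in each table, 26.0% to 28.5% lay on genes, 34.4% to 42.5% on no gene and 24.9% to 31.7% aligned to several places. The last 2 kinds were left out of library sizes and tests.

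All 10 libraries entered 1 fit of group means in edgeR 4.0.16 (R 4.3.3), with TMM factors, filterByExpr (minimum count 10, 13796 genes kept), the quasi-likelihood F-test and Benjamini-Hochberg adjustment over all genes tested, at an FDR of 0.05. The fit left 5 residual degrees of freedom. The scripts were tested on simulated counts. Alternatives were DESeq2 1.42.0, the likelihood ratio test, the earlier quasi-likelihood method, other filters and scalings, only the libraries compared, a replicate block, an FDR of 0.01 and leaving out libraries. CPM used TMM library sizes, and per-length levels the union of exons in GENCODE M21 (GRCm38, the same assembly as mm10), in which all 8 genes had a position. For likeness of patterns, Pearson's r was taken over log2 CPM with a prior count of 2. A count of 3 reads, taken as the detection limit, equals 0.248 to 0.496 CPM. Intervals of *Cd80* count ratios were exact (Clopper-Pearson). An exact permutation test of 2 against 2 libraries cannot give a p below 0.333 and was not used.

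The libraries of 1 genotype with the same number were read as 1 mouse, as their labels imply. Their deviations from group means correlated at 0.303 to 0.445 over genes within genotypes and at -0.01 to 0.114 between them. The 8 genes and the lists (131 of 135 listed symbols were found) were chosen with earlier results of these data known. Named genes were the 8, the called genes of the lists and the 2 genes nearest in pattern to each. Some genes of the lists are not reported here.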

Additional observations from a re-analysis of the deposited data

How the results depend on the processing

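Of 1507 alternative values for 72 single-gene results, 1416 kept their direction and their side of the threshold, 36 lost a call, 15 gained one and 40 changed sign. All 40 sign changes came from leaving out libraries and touched 0 of the 21 results called as reported. The genes called of 8 in KO FoxP3+CD25- against KO non-Tregs numbered 1 as reported, 2 with no filter, 3 by DESeq2, 3 by the likelihood ratio test, 3 with the mouse as a replicate block, 0 at an FDR of 0.01 and 0 to 2 without single libraries. Against KO Tregs the 5 became 3 at an FDR of 0.01, 7 with the block and 3 to 5 without single libraries. In KO Tregs against KO non-Tregs the 4 became 2 to 4 without single libraries (2 without KO non-Treg replicate 1 or KO Treg replicate 2). The block gave 7 in WT Tregs against WT non-Tregs, 5 within KO and 0 for the interaction, and a block on the replicate number gave 0, 0 and 6 in the KO against WT comparisons of Tregs, of non-Tregs, and of KO FoxP3+CD25- cells with WT Tregs. Beyond the calls named with the results, the block changed no other. Over all genes the mouse block raised the calls from 1504 to 2634 in WT Tregs against WT non-Tregs, from 874 to 1650 within KO, and for KO FoxP3+CD25- cells from 230 to 787 against KO non-Tregs and from 968 to 2090 against KO Tregs. For the interaction the same block raised the calls over all genes from 0 to 149.

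The log2 values that changed sign without libraries had these ranges. In WT Tregs against WT non-Tregs, *Cd28* ran from -0.29 to 0.18. In KO FoxP3+CD25- cells against KO non-Tregs, *Cd40lg* ran from -0.55 to 0.19 and *Cd86* from -0.32 to 0.93, and against KO Tregs *Cd28* ran from -0.15 to 0.26. Against WT non-Tregs, *Cd28* ran from -0.31 to 0.0888 (0.0108 without WT replicate 1), *Cd226* from -0.27 to 0.053 (0.0533 without WT replicate 1), *Cd40lg* from -0.45 to 0.19 (0.18 without WT replicate 1) and *Cd86* from -1.16 to 0.0874, and against WT Tregs *Cd28* ran from -0.27 to 0.19. In KO against WT Tregs, *Cd28* ran from -0.34 to 0.13, *Icos* from -0.67 to 0.0881, *Cd80* from -0.91 to 0.41, *Cd86* from -0.37 to 0.23, *Cd274* from -0.26 to 0.044 and *Cd83* from -0.24 to 0.0085 (0.0086 without WT replicate 1). In KO against WT non-Tregs, *Cd40lg* ran from -0.30 to 0.39 and *Cd80* from -0.87 to 0.015. The interaction of *Cd80* ran from -0.60 to 0.72 (0.58 without WT replicate 1). Where leaving out a library left a group of 1, that library was assumed to vary like the other groups, and the cause of each change was not tested. With 0 to 30 counts a library, *Cd80* is limited by depth, and without KO FoxP3+CD25- replicate 2 its fitted value against KO Tregs (-7.05) rests on a group at 0 and is no measure of size.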
